A study of Mus musculus with 8 samples.

Results

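The 10 genes of lipoprotein lipase action and fatty acid uptake, given as a fixed list of gene symbols, were followed in mouse soleus, and all 10 had a row among the 24033 genes of the deposited table. They comprise the enzyme lipoprotein lipase (Lpl), its maturation factor Lmf1, its capillary anchor Gpihbp1 and its inhibitor Angptl4, the membrane carriers Cd36, Slc27a1 and Slc27a4, the cytoplasmic binding protein Fabp3, and the acyl-CoA synthetases Acsl1 and Acsl6. RNA sequencing was done on 4 K15-SKO soleus muscles and 4 MyoCre soleus muscles, all from mice aged 2 months. K15-SKO mice (Myogenin-Cre/+;K15F/F) carried 1 Cre transgene under myogenin control, active in muscle cells, and floxed Klf15 on both chromosomes. MyoCre mice (Myogenin-Cre/+) carried the same Cre and no floxed Klf15 in their label. Cells of the muscle that do not use the myogenin promoter, such as endothelial cells and fat cells, are not targets of this Cre. Klf15 encodes a Kruppel-like transcription factor known as a regulator of lipid and amino acid metabolism, and the comparison asks how soleus RNA differs when it is deleted in muscle.

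In GRCm38, the assembly also called mm10, GENCODE M21 places Lpl at chr8:68880491-68907448 (plus strand), Gpihbp1 at chr15:75596628-75599481 (plus strand), Angptl4 at chr17:33773750-33781830 (minus strand), Lmf1 at chr17:25579085-25662826 (plus strand) and Cd36 at chr5:17781690-17888801 (minus strand). It places Fabp3 at chr4:130308595-130315463 (plus strand), Slc27a1 at chr8:71568882-71587302 (plus strand), Slc27a4 at chr2:29802634-29817522 (plus strand), Acsl1 at chr8:46471037-46536051 (plus strand) and Acsl6 at chr11:54303798-54364756 (plus strand).

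Skeletal muscle takes up fatty acids along a relay. Lipoprotein lipase is made in muscle fibres and fat cells, folded with the help of LMF1, carried across the capillary wall by GPIHBP1, and there splits the triglyceride of circulating lipoproteins, an activity that ANGPTL4 blocks. The fatty acids released enter through CD36 and the fatty acid transport proteins of the SLC27 family, are bound in the cytoplasm by FABP3, and are activated to acyl-CoA by long-chain acyl-CoA synthetases. Slow oxidative muscle such as the soleus is known for a high capacity of this route.

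The values are FPKM, fragments scaled to transcript length and to sequencing depth. They are not fully comparable between libraries, where their sums ran from 519884 to 652275. The main fit used them without further scaling, and median-of-ratios scaling was an alternative. The table gives no read counts. Where the low values showed a clear step, in 5 of the 8 libraries, the depth was estimated at 7940000 to 9550000 fragments in 4 and at 21900000 fragments in MyoCre replicate 2. Klf15 had 15.7, 19.3, 16.7 and 13.1 FPKM in K15-SKO soleus, against 44.5, 49.8, 49.1 and 22.8 FPKM in MyoCre soleus. MyoCre replicate 4 thus had the lowest Klf15 of its genotype. Of the skeletal muscle markers analysed, all 10 were above 1 FPKM in at least 1 library, with sums of 16410 to 29120 FPKM in K15-SKO and 15110 to 26060 FPKM in MyoCre muscle. K15-SKO replicate 3 stood apart in the sum of 5 erythroid genes, 2034 FPKM against at most 577 FPKM in any other library, and in its scaling factor (0.796 by median of ratios, against 0.953 to 1.15). MyoCre replicate 2 was the only library with the Y-linked Ddx3y (23.0 FPKM) and nearly without Xist (0.0103 FPKM).

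None of the 10 genes was called different between the genotypes. In limma on log2(FPKM + 0.5), with p-values adjusted over 12535 tested genes by the Benjamini-Hochberg method, 0 of the 10 passed adjusted p 0.05. In the same test 0.550% of all tested genes passed, 0.183% with lower and 0.367% with higher values in K15-SKO. All 46 of the higher ones were listed at 0 in every MyoCre library. At an unadjusted p under 0.05, 1 of the 10 passed (Lpl, lower), against 4.33% of all tested genes, 3.43% as lower in K15-SKO. No member had all its K15-SKO libraries below all its MyoCre libraries, which 2.72% of tested genes did, or above them, which 0.630% did. The log2 fold change, K15-SKO over MyoCre, was below 0 in 8 of the 10, close to the 77.0% of all tested genes with a negative value. Their median was -0.21 and that of all tested genes -0.12. Relative to that common shift, 6 of the 10 lay below it, against 50.0% of all genes.

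**Figure D1:**
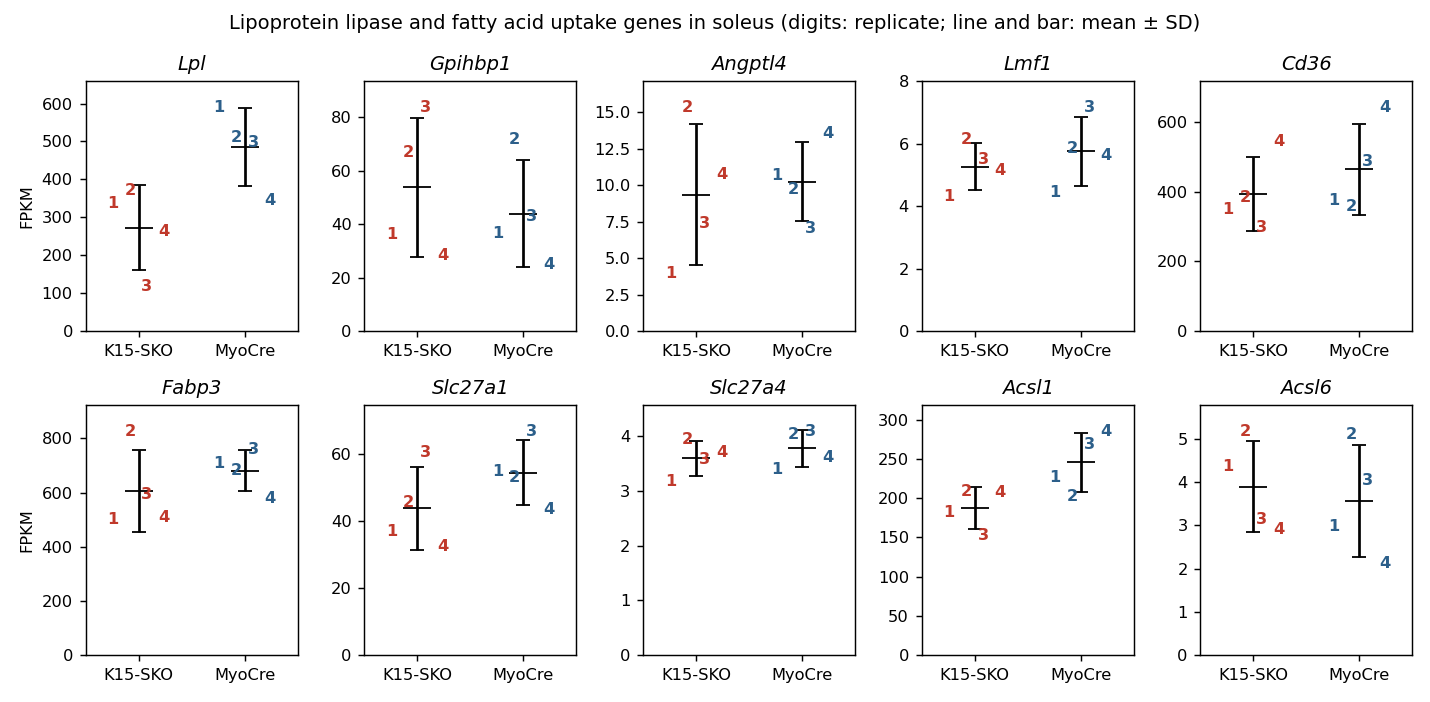
FPKM of the 10 genes (y axis, from 0) in each library, K15-SKO in red and MyoCre in blue, with the digit giving the replicate and the line and bar the mean ± SD of 4 libraries. Lpl is at 118 to 371 FPKM in K15-SKO and 343 to 589 FPKM in MyoCre libraries, and every gene has overlapping groups.

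**Figure D2:**
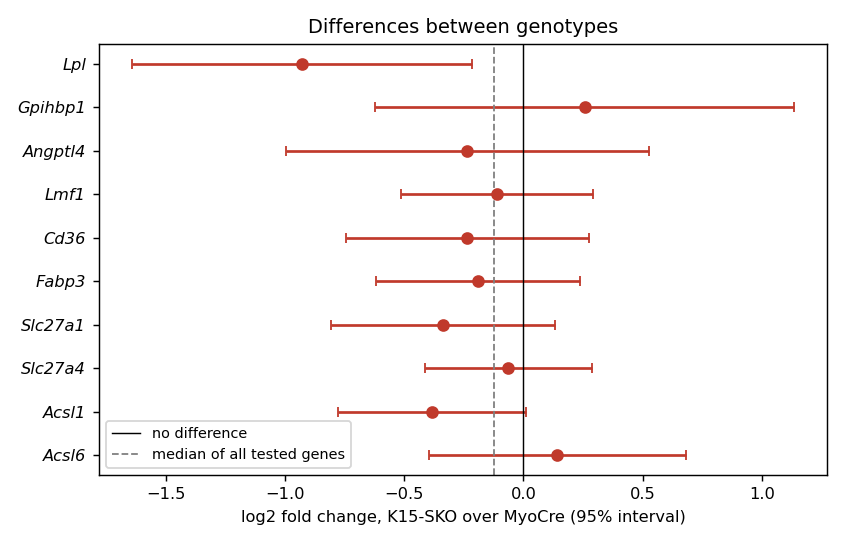
Log2 fold change of the 10 genes, K15-SKO over MyoCre (x axis), with its 95% interval from limma as the bar. The interval of Lpl, from -1.64 to -0.22, is the only one of the 10 that does not include 0, before adjustment for the number of genes tested.

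Ordered by mean level over the 8 libraries, the genes ran from Fabp3 (644 FPKM) through Cd36 (429), Lpl (379), Acsl1 (217), Slc27a1 (49.1), Gpihbp1 (48.8), Angptl4 (9.78), Lmf1 (5.52) and Acsl6 (3.73) to Slc27a4 (3.69 FPKM). Fabp3 ranked 114 and Cd36 159 among all 24033 genes of the table. The order of neighbours held in all 8 libraries for Acsl1 above Slc27a1 and for Gpihbp1 above Angptl4. It held in 7 of 8 libraries for Lpl above Acsl1 and for Lmf1 above Acsl6. Fabp3 above Cd36 and Angptl4 above Lmf1 held in 6. Cd36 lay above Lpl in 5 libraries, Slc27a1 above Gpihbp1 in 5, and Acsl6 above Slc27a4 in 3, so these neighbours did not differ beyond their spread. Within each family the genes stood far apart, since Slc27a1 was 8.74 to 17.0 times as high as Slc27a4 within a library, and Acsl1 39.5 to 135 times as high as Acsl6.

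Lpl, the lipase itself, had the log2 fold change farthest from 0 of the 10 genes. It had 338, 371, 118 and 263 FPKM in K15-SKO soleus, against 589, 510.0, 498 and 343 FPKM in MyoCre soleus. Only K15-SKO replicate 2 exceeded a MyoCre library, namely replicate 4. The means were 272 ± 112 FPKM in K15-SKO and 485 ± 103 FPKM in MyoCre muscle (SD, n = 4 each), which puts K15-SKO at 56.1% of MyoCre. The log2 fold change was -0.93 (SE 0.33), with a 95% interval for the fold of 0.320 to 0.860, and the limma adjusted p was 0.825. On the FPKM values, an exact permutation test (two-sided, n = 4 each) gave p = 0.0571, and 70 assignments allow no p below 0.0286. The size of the difference leaned on K15-SKO replicate 3, the lowest library, and without it the log2 fold change was -0.57 (adjusted p = 0.915). It was -0.79 after median-of-ratios scaling, and over 21 alternatives the adjusted p ran from 0.106 to 1. In bulk RNA fewer cells of a type and less RNA per cell cannot be told apart.

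Fat cells and macrophages also make lipoprotein lipase, and their markers are given beside it. Of 8 adipocyte markers tested, 0 passed adjusted p 0.05, and 5 of the 8 had negative log2 fold changes, against 77.0% of all tested genes. The 9 adipocyte markers in the table summed to 1759 to 2539 FPKM in K15-SKO and 1586 to 2078 FPKM in MyoCre libraries, most of it Car3 (1244 to 2273 FPKM in K15-SKO and 1225 to 1755 FPKM in MyoCre), which muscle fibres express too. The fat cell hormone gene Adipoq had 3.63 ± 1.88 FPKM in K15-SKO and 5.45 ± 1.90 FPKM in MyoCre muscle, and the lipid droplet gene Plin1 had 1.26 ± 0.607 FPKM in K15-SKO and 2.14 ± 0.344 FPKM in MyoCre muscle. Their log2 fold changes were -0.58 and -0.65. Those of the other tested adipocyte markers were 0.20 (Fabp4), 0.26 (Car3), 0.00065 (Lipe), -0.23 (Retn), -0.24 (Cidec) and -0.76 (Cfd). Fabp4 was far above Adipoq, at 226 to 458 FPKM in K15-SKO and 217 to 306 FPKM in MyoCre libraries. Which cells made the RNA of Fabp4, Car3 and Lipe was not tested, so the count of negative values may not describe fat cells alone. None of the 9 adipocyte markers in the table was at 0 in every library, and 1 of them, Lep, stayed below 1 FPKM throughout. Plin1 had an unadjusted limma p of 0.0267 and an adjusted p of 0.940. The 9 macrophage markers summed to 20.8 to 49.8 FPKM in K15-SKO and 43.5 to 48.5 FPKM in MyoCre libraries. All 9 had negative log2 fold changes (median -0.40), against 77.0% of all tested genes (median -0.12), and 0 passed adjusted p 0.05. The part of these cells in the Lpl values was not tested.

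The profile of Lpl over the 8 libraries was compared with that of 7091 other genes of at least 5 FPKM on average, by the root mean square difference of centred log2 values. The nearest were Foxo6os, an RNA named as antisense to Foxo6 (0.16 log2 units), the predicted gene Gm6563 (0.27), Hspe1, the mitochondrial co-chaperonin (0.28), Tpd52l1 (0.28) and Filip1l (0.28), where the median gene was 0.60 away. Foxo6os was at 1.92 FPKM in K15-SKO replicate 3 and at 4.73 and 6.20 FPKM in K15-SKO replicates 1 and 2, against 5.52 to 10.5 FPKM in MyoCre soleus. Like Lpl, all 5 had their lowest value in K15-SKO replicate 3, which their selection for likeness to Lpl favours. Likeness on this measure includes that library, and the values were not scaled further between libraries. Of the other 9 members the nearest to Lpl was Acsl1 at 0.55, and the farthest was Gpihbp1 at 1.03.

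**Figure D3:**
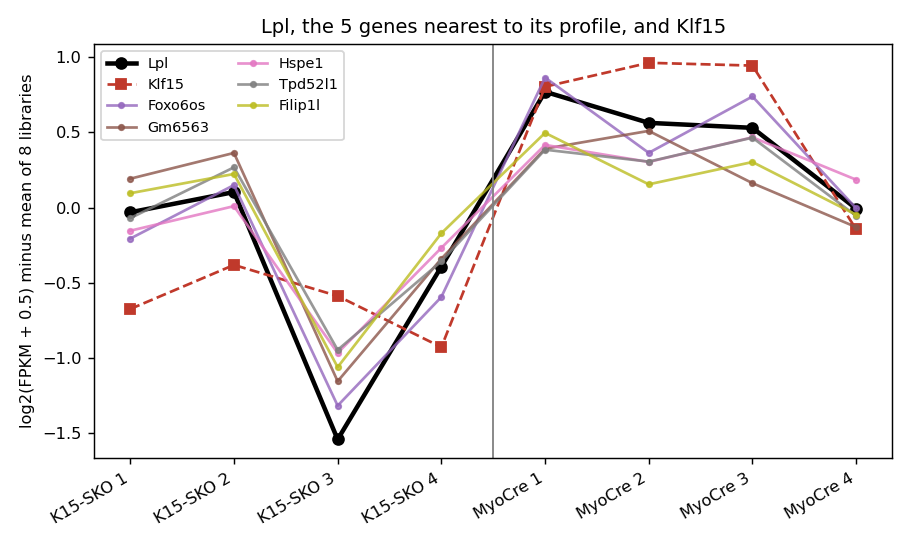
Centred log2(FPKM + 0.5) (y axis) in each library (x axis, K15-SKO left of MyoCre) for Lpl in black, the 5 genes nearest to it, and Klf15 as red dashes. The lines only join points of one gene. Lpl and its neighbours reach their lowest point in K15-SKO replicate 3, and Lpl and Klf15 have their lowest MyoCre value in replicate 4.

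Lmf1, the endoplasmic reticulum factor needed to fold the lipase, had a low and even level. It had 4.32, 6.13, 5.50 and 5.13 FPKM in K15-SKO soleus, against 4.45, 5.83, 7.15 and 5.63 FPKM in MyoCre soleus, and the groups overlapped over most of their range. In limma the log2 fold change was -0.11 (SE 0.19, adjusted p = 0.957), with an interval for the fold of 0.701 to 1.22, and its sign turned to 0.02 with median-of-ratios scaling.

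Gpihbp1, the endothelial protein that binds the lipase and brings it to the capillary lumen, varied widely within both genotypes. It had 36.3, 66.8, 83.4 and 28.3 FPKM in K15-SKO soleus, against 36.5, 71.7, 42.8 and 24.9 FPKM in MyoCre soleus. Its highest value was in K15-SKO replicate 3, where Lpl was lowest, and the ratio of Lpl to Gpihbp1 was 9.31, 5.55, 1.42 and 9.29 in K15-SKO libraries and 16.1, 7.11, 11.6 and 13.8 in MyoCre libraries. The means were 53.7 ± 25.9 FPKM in K15-SKO and 44.0 ± 19.9 FPKM in MyoCre muscle (log2 fold change 0.26, SE 0.39, limma adjusted p = 0.957). The interval for the fold ran from 0.649 to 2.20. Without K15-SKO replicate 3 the log2 fold change was 0.0015 and without MyoCre replicate 2 it was 0.52. With library weights it was -0.10.

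Endothelial markers were measured beside Gpihbp1, since the floxed gene is not targeted in those cells. Of 10 endothelial markers 8 had positive log2 fold changes, while 77.0% of all tested genes had negative ones. The median of the markers was 0.17, against -0.12 for all tested genes, and 0 passed adjusted p 0.05. Their summed level was 330, 389, 451 and 311 FPKM in K15-SKO libraries and 290.1, 369, 393 and 303 FPKM in MyoCre libraries. Cdh5, the endothelial cadherin, was the 1 marker of 10 with an unadjusted p under 0.05, against 0.901% of all tested genes as higher in K15-SKO. Cdh5 was at 30.9 ± 1.23 FPKM in K15-SKO and 23.1 ± 4.03 FPKM in MyoCre muscle (limma adjusted p = 0.948). Its groups did not overlap, as for 0.630% of all tested genes in the same direction. In both genotypes the library with the lowest Gpihbp1 was replicate 4, while the sum of the endothelial markers was lowest in replicate 4 of K15-SKO and in replicate 1 of MyoCre. The part of endothelial content in the Gpihbp1 values was not tested.

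Angptl4, the secreted inhibitor of the lipase and a known target of fatty acid sensing nuclear receptors, ranged widely. It had 3.97, 15.3, 7.37 and 10.7 FPKM in K15-SKO soleus, against 10.6, 9.67, 7.03 and 13.6 FPKM in MyoCre soleus. The K15-SKO libraries held both the lowest and the highest value of the 8. The means were 9.34 ± 4.84 FPKM in K15-SKO and 10.2 ± 2.70 FPKM in MyoCre muscle (log2 fold change -0.24, SE 0.35, limma adjusted p = 0.957), and the interval for the fold ran from 0.501 to 1.44. Leaving out K15-SKO replicate 1 turned the log2 fold change to 0.10, and leaving out K15-SKO replicate 2 gave -0.51.

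Cd36, the multispecific fatty acid translocase of muscle, fat and capillary membranes, was the most abundant of the 3 carriers. It had 349, 382, 297 and 545 FPKM in K15-SKO soleus, against 374, 357, 487 and 641 FPKM in MyoCre soleus. Replicate 4 was the highest library in both genotypes, and the ranges overlapped. The means were 393 ± 107 FPKM in K15-SKO and 465 ± 131 FPKM in MyoCre muscle, with a log2 fold change of -0.24 (SE 0.24, limma adjusted p = 0.957) and an interval for the fold of 0.596 to 1.21. It was -0.069 without MyoCre replicate 4, -0.11 without K15-SKO replicate 3 and -0.41 without K15-SKO replicate 4, and -0.098 with median-of-ratios scaling.

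Slc27a1 encodes FATP1, the main fatty acid transport protein of muscle, which also has acyl-CoA synthetase activity. It had 36.7, 45.5, 60.5 and 32.3 FPKM in K15-SKO soleus, against 54.8, 53.0, 66.8 and 43.3 FPKM in MyoCre soleus. Only K15-SKO replicates 2 and 3 came above any MyoCre library. The means were 43.8 ± 12.4 FPKM in K15-SKO and 54.5 ± 9.62 FPKM in MyoCre muscle, with a log2 fold change of -0.34 (SE 0.22, limma adjusted p = 0.957). Here K15-SKO replicate 3 was the highest library of its genotype, and without it the log2 fold change was -0.50 (adjusted p = 0.876). Without K15-SKO replicate 4 it was -0.21, and with median-of-ratios scaling -0.20. With library weights it was -0.53 (adjusted p = 0.104).

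Slc27a4, which encodes FATP4, a transporter best known from skin and intestine, was low and had the smallest spread of the 10. It had 3.18, 3.94, 3.56 and 3.70 FPKM in K15-SKO soleus, against 3.39, 4.03, 4.08 and 3.61 FPKM in MyoCre soleus. Its highest library was 1.28 times its lowest. In limma the log2 fold change was -0.06 (SE 0.16, adjusted p = 0.964), and 0.06 with median-of-ratios scaling. The interval for the fold, 0.751 to 1.22, is the narrowest of the 10 on the log scale.

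Fabp3, the heart and muscle fatty acid binding protein, had the highest mean level of the 10, above Cd36 in 6 of 8 libraries. It had 499.9, 825, 591 and 509 FPKM in K15-SKO soleus, against 706, 683, 758 and 577 FPKM in MyoCre soleus. K15-SKO replicate 2 was the highest of all 8, while K15-SKO replicates 1 and 4 were below every MyoCre library. The means were 606 ± 152 FPKM in K15-SKO and 681 ± 76.4 FPKM in MyoCre muscle (log2 fold change of -0.19 with SE 0.20, limma adjusted p = 0.957). The log2 fold change was -0.35 without K15-SKO replicate 2, -0.11 without K15-SKO replicate 1 and -0.12 without K15-SKO replicate 4.

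The level of Fabp3 is uncertain, because a processed pseudogene nearly identical to its coding sequence has a row of its own. Fabp3 lies on chromosome 4 (130308595 to 130315463, plus strand) and Fabp3-ps1 on chromosome 10 (86731987 to 86732388, minus strand) of GRCm38, the assembly also called mm10. The 402 bases of Fabp3-ps1 match the Fabp3 transcript at 399 positions, or 99.3%, without a gap, beginning at the start codon. The first 80 bases of that match, from the GENCODE M21 transcripts, are shown because they make plain how little separates a read of the gene from a read of its copy. The capital marks the base that differs.
Fabp3: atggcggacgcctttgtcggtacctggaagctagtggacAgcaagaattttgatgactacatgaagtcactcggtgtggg
Fabp3-ps1: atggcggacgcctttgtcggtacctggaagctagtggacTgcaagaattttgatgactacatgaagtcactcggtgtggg
Fabp3-ps1 had 614, 1041, 768 and 753 FPKM in K15-SKO soleus, against 930.2, 993, 1010 and 739 FPKM in MyoCre soleus, 1.23 to 1.48 times the level of Fabp3 in the same library. When the fragments of both were put together over the length of the Fabp3 transcript, the level was 994 ± 237 FPKM in K15-SKO and 1129 ± 134 FPKM in MyoCre muscle (n = 4 each, two-sided exact permutation p = 0.400). K15-SKO stood at 88.0% of MyoCre for the sum and at 89.0% for Fabp3 alone. The sources used here do not say how reads were divided between both loci. A search of the same transcripts for copies of the other 9 genes, at 95% identity over 150 or more bases, found a 167-base match of Slc27a1 in Slc3a2 and an overlapping antisense transcript of Acsl1, Gm45244, with a mean of 0.00525 FPKM.

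Acsl1, the main long-chain acyl-CoA synthetase of oxidative tissue, had the second largest negative log2 fold change of the 10. It had 182, 208, 152.5 and 207 FPKM in K15-SKO soleus, against 226, 202, 269 and 285 FPKM in MyoCre soleus. Only MyoCre replicate 2 fell within the K15-SKO range. The means were 188 ± 26.3 FPKM in K15-SKO and 245 ± 38.1 FPKM in MyoCre muscle, or 76.4% of MyoCre. In limma the log2 fold change was -0.39 (SE 0.18, adjusted p = 0.957), and its interval ran from -0.78 to 0.01. Set against the shift of all genes it was -0.26. A two-sided exact permutation test (n = 4 each) gave p = 0.0857. Exact tests were run for all 10 genes, and the other 8 gave p-values from 0.229 for Slc27a1 to 0.771 for Angptl4. In 1 setting, library weights, the adjusted p of Acsl1 was 0.361.

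Acsl6, a synthetase best known from brain and red blood cell precursors, was among the lowest genes of the set. It had 4.37, 5.18, 3.14 and 2.91 FPKM in K15-SKO soleus, against 2.98, 5.11, 4.04 and 2.12 FPKM in MyoCre soleus. The ranges overlapped nearly in full. In limma the log2 fold change was 0.14 (SE 0.25, adjusted p = 0.957), and -0.05 without MyoCre replicate 4. In K15-SKO replicate 3, the library with the most erythroid RNA, Acsl6 was below the mean of its genotype (3.90 ± 1.06 FPKM). The antisense gene Gm12224 overlaps the span of Acsl6 on the opposite strand and was at 27.3, 34.3, 19.1 and 29.5 FPKM in K15-SKO soleus, against 29.4, 51.6, 32.9 and 27.3 FPKM in MyoCre soleus. The strand setting is not given, and whether exons overlap was not tested, so the level of Acsl6 is uncertain. Fabp3 is likewise overlapped by Zcchc17 on the opposite strand, at a mean of 11.7 FPKM.

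Profiles over the 8 libraries were also compared between the genes themselves. The closest pairs by root mean square difference of centred log2 values were Lmf1 with Slc27a4 (0.12), Fabp3 with Slc27a4 (0.20) and Cd36 with Acsl1 (0.20). Cd36 and Acsl1 both had their highest library in MyoCre replicate 4 and their lowest in K15-SKO replicate 3. Low spread alone brings steady genes such as Slc27a4 and Lmf1 close on this measure. The farthest pairs were Lpl with Gpihbp1 (1.03) and Gpihbp1 with Cd36 (0.90). K15-SKO replicate 1 held the lowest value of 4 of the 10 genes and K15-SKO replicate 3 that of 3, namely Lpl, Cd36 and Acsl1.

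**Figure D4:**
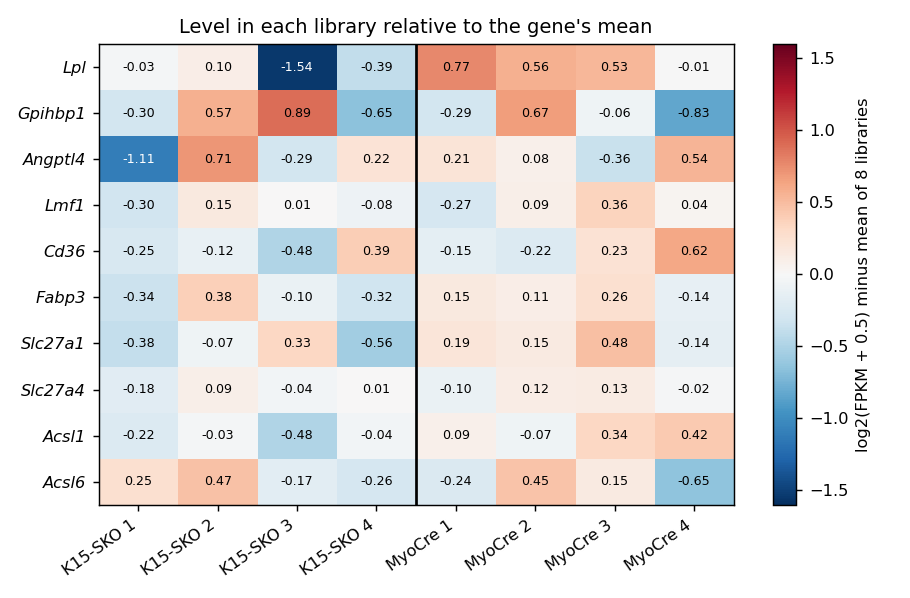
Each cell gives log2(FPKM + 0.5) of a gene (row) in a library (column) minus that gene's mean over the 8 libraries, red above and blue below it, with K15-SKO left of the vertical line and MyoCre right of it. In K15-SKO replicate 3 Lpl stands at -1.54 and Gpihbp1 at 0.89.

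Other genes of the route were taken from 4 lists. Of 12 tested partners of the lipase, such as apolipoproteins, processing proteases and receptors, 0 passed adjusted p 0.05 in limma. Their median log2 fold change was -0.10, against -0.12 for all tested genes. At an unadjusted p under 0.05, 2 passed as lower in K15-SKO, against 3.43% of all tested genes. Among the 2 was Pcsk5, a proprotein convertase of the family that cleaves the lipase and its inhibitors. Pcsk5 had 1.87, 2.09, 1.20 and 1.56 FPKM in K15-SKO soleus, against 2.57, 2.81, 2.90 and 2.17 FPKM in MyoCre soleus (log2 fold change -0.53, SE 0.19, adjusted p = 0.825). Its groups did not overlap, as for 2.72% of all tested genes in the same direction, and its level was close to the filter of 1 FPKM. The largest positive differences by p were those of Lmf2, a paralogue of Lmf1 (4.23 ± 0.401 FPKM in K15-SKO and 3.34 ± 0.495 FPKM in MyoCre, log2 fold change 0.31), and Hspg2, the heparan sulphate proteoglycan perlecan (32.0 ± 3.09 FPKM in K15-SKO and 25.8 ± 5.34 FPKM in MyoCre, log2 fold change 0.32).

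Of 9 tested genes for fatty acid transport and binding, 0 passed adjusted p 0.05, and 0 had an unadjusted p under 0.05 (median log2 fold change -0.06). Got2, the mitochondrial aspartate transaminase also known as a plasma membrane fatty acid binding protein, had 161 ± 12.3 FPKM in K15-SKO and 191 ± 22.1 FPKM in MyoCre muscle (log2 fold change -0.24). Dbi, the acyl-CoA binding protein, had 133 ± 28.9 FPKM in K15-SKO and 158 ± 21.4 FPKM in MyoCre muscle (log2 fold change -0.26). Scarb1, a scavenger receptor, and Cav1, the caveolin of endothelial and fat cells, had log2 fold changes of 0.31 and 0.25. The other transporters Slc27a2, Slc27a3, Slc27a5 and Slc27a6 were below 1 FPKM on average and were not tested.

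Among the other acyl-CoA synthetases, 1 of 9 tested genes passed as higher, against 0.367% of all tested genes. It was Acsf3, a mitochondrial member of the family, which had 4.88, 5.45, 5.39 and 3.66 FPKM in K15-SKO soleus and was listed at 0 in every MyoCre library, like all other genes called higher, so no fold is given. Among those are Acta1, Cox4i1 and Rpl13, which muscle cells use throughout. The remaining 8 had a median log2 fold change of -0.10, with Acsl3 at 6.20 ± 1.59 FPKM in K15-SKO and 7.85 ± 0.921 FPKM in MyoCre muscle (log2 fold change -0.34) and Acsl4 at 6.61 ± 2.31 FPKM in K15-SKO and 8.48 ± 1.41 FPKM in MyoCre muscle (log2 fold change -0.40). Both were lowest in K15-SKO replicate 3, and without it the log2 fold change was -0.20 for Acsl3 and -0.13 for Acsl4. With library weights that of Acsl4 was -0.10. Aacs, the cytosolic acetoacetyl-CoA synthetase, had a log2 fold change of 0.05.

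Of 18 regulators of the pathway, 1 passed, as lower, against 0.183% of all tested genes. It was Klf15 itself, the gene floxed in K15-SKO mice, so this call is no finding about the other regulators. Klf15 was at 16.2 ± 2.58 FPKM in K15-SKO and 41.6 ± 12.7 FPKM in MyoCre muscle (log2 fold change -1.28, SE 0.25, limma adjusted p = 0.0315). Its log2 fold change stayed between -1.55 and -1.15 in every alternative, while the call itself moved. The call ended with median-of-ratios scaling (-1.15, adjusted p = 0.0904) and with the listed-at-0 genes removed (-1.28, adjusted p = 0.0943). It held with library weights (adjusted p = 0.000195). Of 8 limma fits without 1 library, 2 kept the call, those without K15-SKO replicate 2 (adjusted p = 0.0442) and without MyoCre replicate 4 (0.000772). The other 6 were without K15-SKO replicate 1 (0.0939), 3 (0.152) or 4 (0.0534) and without MyoCre replicate 1 (0.123), 2 (0.0855) or 3 (0.199). The remaining 17 included Ppara, the fatty acid sensing nuclear receptor, at 14.5 to 25.4 FPKM in K15-SKO and 18.8 to 32.8 FPKM in MyoCre muscle (log2 fold change -0.39, adjusted p = 0.957). Rxra, its partner receptor, had 20.5 ± 1.83 FPKM in K15-SKO and 19.4 ± 3.75 FPKM in MyoCre muscle. Pparg, the receptor of fat cells, had 3.30 ± 1.41 FPKM in K15-SKO and 3.10 ± 0.712 FPKM in MyoCre muscle. The median of the list, Klf15 included, was -0.18, against -0.12 for all tested genes.

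**Figure D5:**
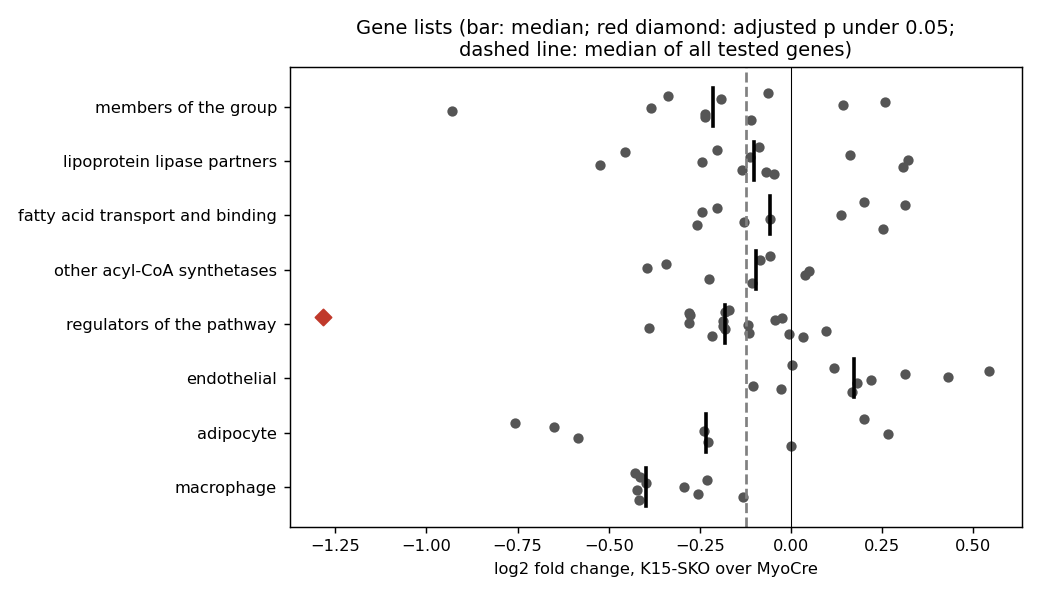
Log2 fold change, K15-SKO over MyoCre (x axis), of the tested genes of each list (y axis), with 1 point per gene, the bar at the list's median and the dashed line at the median of all tested genes, -0.12. Acsf3, listed at 0 in MyoCre, is left out. Klf15, at -1.28, is the red diamond and the only gene shown that passed adjusted p 0.05, and the endothelial list has a median of 0.17.

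Promoters were looked at for letters that Kruppel-like factors and the fatty acid sensing receptors are known to favour. RefSeq sequences for build GRCm38.p6 matched 7 of the 10 genes (Lmf1, Cd36, Fabp3, Slc27a1, Slc27a4, Acsl1 and Acsl6) with 12 start sites, and those of Lpl, Gpihbp1 and Angptl4 are named only. The motif CACCC, the motif CCGCCC and the motif AGGTCA were searched on both strands of the 250 bases before each start, and matches may overlap each other. CACCC was present at 8 of the 12 start sites, against 52.0% of all 32851 start sites with a sequence. CCGCCC was present at 9 of 12, against 32.7%, and AGGTCA at 2 of 12, against 14.0%. Which start site soleus uses cannot be read from a table of genes, and start sites of 1 gene are not independent. The sequences are shown for the 3 of these 7 matched genes with the most negative log2 fold changes, Acsl1, Slc27a1 and Cd36, which were chosen after their values were seen. Matches on either strand are in capitals, and each sequence runs 5′ to 3′ on the strand of its gene. The windows are chr8:46470787-46471036 (plus strand) for the first start site of Acsl1, chr8:71568621-71568870 (plus strand) for the first of Slc27a1 and chr5:17835897-17836146 (minus strand) for Cd36.
Acsl1: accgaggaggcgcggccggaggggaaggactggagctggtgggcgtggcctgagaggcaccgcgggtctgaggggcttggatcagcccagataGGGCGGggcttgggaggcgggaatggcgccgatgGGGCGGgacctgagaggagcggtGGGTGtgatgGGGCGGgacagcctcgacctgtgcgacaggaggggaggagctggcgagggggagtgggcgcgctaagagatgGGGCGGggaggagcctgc
Slc27a1: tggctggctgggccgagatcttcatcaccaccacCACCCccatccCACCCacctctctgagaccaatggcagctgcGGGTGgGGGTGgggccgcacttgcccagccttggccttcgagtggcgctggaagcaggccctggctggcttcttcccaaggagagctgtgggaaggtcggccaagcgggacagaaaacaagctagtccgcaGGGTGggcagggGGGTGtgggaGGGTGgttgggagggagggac
Cd36: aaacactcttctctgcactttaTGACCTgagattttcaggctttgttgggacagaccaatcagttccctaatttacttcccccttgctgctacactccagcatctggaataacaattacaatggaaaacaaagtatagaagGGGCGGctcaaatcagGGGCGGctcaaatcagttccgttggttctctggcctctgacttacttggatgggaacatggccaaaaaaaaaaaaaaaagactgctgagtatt
The Acsl1 window held 4 matches of CCGCCC and 1 of CACCC at 72.0% G and C. That of Slc27a1 held 7 matches of CACCC and 0 of CCGCCC at 66.4% G and C. The Cd36 window, at 43.2% G and C, held 2 matches of CCGCCC, 1 of AGGTCA and 0 of CACCC. A match of so few letters is a description of the sequence, and these data do not measure binding.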

How the data were processed

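RNA was measured in 8 soleus libraries, 4 K15-SKO and 4 MyoCre, and each column was assigned through its label. The deposited FPKM values were made by the authors with STAR, Cufflinks and Cuffdiff on mm10, per the submitters' processing notes, which give no versions. The header of the table gives sample names only, so the unit FPKM was inferred from these tools and from values that are not whole and do not share a total. The sources used here do not give annotation release, strand setting, filters or scaling. Genes that muscle cells use, such as Rpl13, stand at 0 in every MyoCre library, so an exact 0 is reported as listed at 0.

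On a scale of log2(FPKM + 0.5), limma 3.58.1 (R 4.3.3) was run two-sided with trend and robust estimation on 12535 of 24033 genes, those averaging 1 FPKM or more, which included all 10 members. Fold changes on this scale understate those of low genes. Intervals are 95% moderated intervals, and exact permutation tests used all 70 assignments. Nothing states that replicates are separate mice beyond their labels, so p-values measure the spread between these samples. The median over all tested genes, -0.12 in log2, became 0.00 after median-of-ratios scaling. The fit was tested on simulated data. Depth was estimated from FPKM times length in genes with 1 transcript over 1 kb, taking the most common low value as 1 fragment, and was left blank where no clear step was seen. Coordinates and copies come from GENCODE M21 (GRCm38), in which 23896 of the 24033 gene IDs were found without regard to version. The table holds 0 further columns of values.

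The members and lists were chosen with earlier results of these data known, and no p-value was adjusted over a list. Named genes are the members, Klf15, in each wider list those past the threshold and the 2 with the smallest p in each direction, the 5 nearest to Lpl, and the markers; exceptions are stated, and 1 gene that this rule names is not reported here. Alternatives were other pseudocounts, filters, scalings, variance settings, library weights, a replicate block, and leaving out libraries. Leaving out K15-SKO replicate 3 and MyoCre replicate 2 together, and adding Fabp3-ps1 to Fabp3, were chosen after the data were seen. Same-numbered libraries were not treated as pairs in the main fit, because the labels give no shared origin. The correlation of their deviations was 0.102, 0.233, 0.0022 and 0.277 for numbers 1 to 4. Those of numbers 2 and 4 were the largest between any K15-SKO and any MyoCre library, so these values do not settle whether numbers are shared.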

Additional observations from a re-analysis of the deposited data

Results flagged for a closer look

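Each of the 20 groups of 4 values (10 genes in 2 genotypes) was checked for a library far from the rest of its group, where chance flags about 1 in 20. None met that mark, K15-SKO replicate 3 included.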

How the results depend on the processing

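Across 21 alternatives, none of the 10 genes passed adjusted p 0.05 in any of 208 fits, and 197 of these kept the direction. The lowest adjusted p of a member was 0.104, for Slc27a1 with library weights, where 4 of the 10 genes and 1393 of 12535 tested genes had an unadjusted p under 0.05. The sign turned for Gpihbp1 with library weights (-0.10), for Lmf1 with median-of-ratios, upper-quartile and quantile scaling (0.017, 0.011 and 0.0098) and for Slc27a4 with the same 3 (0.060, 0.054 and 0.044). With the replicate block and median-of-ratios scaling together, Lmf1 was again at 0.017 and Slc27a4 at 0.060. Pparg turned with library weights (-0.17) and without K15-SKO replicate 3 and MyoCre replicate 2 together (-0.11). Leaving out 1 library gave log2 fold changes from -1.12 to -0.57 for Lpl, -0.51 to 0.10 for Angptl4, -0.050 to 0.32 for Acsl6, -0.049 to 0.26 for Aacs, -0.056 to 0.15 for Rxra and -0.20 to 0.15 for Pparg.

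The log2 fold change of Klf15 stayed between -1.55 and -1.15. Its call held with library weights, with the replicate block (adjusted p = 0.00534) and with the block and median-of-ratios scaling together (0.0133). The count among the regulators became 0 with no minimum mean, with each of the 3 scalings, with no robust estimation, without the genes at 0 in a whole genotype and without the 2 libraries named above, and ranged from 0 to 1 when 1 library was left out. The call of Acsf3 among the synthetases became 0 with a minimum mean of 5 and without the genes at 0. Lower genes numbered 23 as reported, 14 with each of the 3 scalings, 15 with no robust estimation, 101 with library weights, 12 without the genes at 0 and 8 to 28 without 1 library. Higher genes numbered 46 as reported, 22 with a minimum mean of 5, 0 without the genes at 0 and 45 to 54 without 1 library. Removing the genes at 0, or setting a minimum mean of 5, takes Acsf3 out of the test, as it does all 46 higher genes in the first case; for Klf15 and the lower genes the cause was not tested. The replicate block gave 78 calls against 69 in all and 0 among the members (Lpl adjusted p = 0.455). K15-SKO replicates 2 and 4 correlated best with their own number (0.233 and 0.277). K15-SKO replicates 1 and 3 did not (0.104 with MyoCre replicate 3 and 0.135 with MyoCre replicate 2), though replicate 1 had 0.102 with its own number. Depth is known only as an estimate, in 5 of 8 libraries, so counting error could not be given.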
